A study of Rattus norvegicus with 56 samples.

Results

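H3K27me3 is the histone mark of Polycomb repression. It is laid down by PRC2, whose EED subunit binds H3K27me3 that is already present and thereby stimulates the EZH enzymes to mark neighbouring nucleosomes, so the mark can extend outward from places that carry it. In the brain it covers developmental regulators and other genes that stay silent in mature neurons and glia. H3K4me3 marks active and poised promoters, and H3K9ac marks active promoters and enhancers.

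The regions described here, called near gains, are stretches of the rat genome that held an H3K27me3 peak at 21 months on both sides of the brain and at 13 months on neither, lay within 5 kb of a 13-month peak of either side, and overlapped no H3K4me3 peak. They were found by joining the overlapping peaks of the 4 H3K27me3 lists made without plasma into 493767 regions. Of these, 108415 (22.0%) had a peak on both sides at 21 months and on neither at 13 months, and 68255 of those lay within 5 kb of an earlier peak. After the 1857 that overlapped H3K4me3 were left out, 66398 near gains remained, with 47.2 Mb in all. The 38900 gains that lay farther than 5 kb from any earlier peak and overlapped no H3K4me3, called far gains, serve for comparison. A region's presence or absence in the 4 lists and its distance from earlier peaks chose it, so these are not findings, and lengths and folds at 21 months are given as descriptions.

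The study mapped histone marks by ChIP-seq, sequencing of DNA pulled down with an antibody to a modified histone, in brain tissue of rats with intracerebral haemorrhage, bleeding within the brain. The lists used cover ipsilateral tissue of 21-month rats given plasma from 3-month rats (H3K27me3 and H3K9ac), ipsilateral tissue of 21-month rats given plasma from 22-month rats (the same marks), and ipsilateral and contralateral tissue of 21-month and of 13-month rats without plasma (H3K27me3, H3K9ac and H3K4me3). All groups had the haemorrhage, and the contralateral side came from the same kind of rat and not from healthy animals. The labels give 21 months for the older rats and the series design text gives 22. Whether a group's libraries came from separate animals is not stated, and neither are the strain or the brain region. The lists name no genes, so the labelled tissue could not be checked against marker genes.

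Each list without plasma pooled 2 ChIP and 2 input libraries before peaks were called, and each plasma list rests on 1 of each. There is therefore no spread between replicates behind any value, no test between groups was possible, and the 95% Wilson intervals below cover counting error over regions only. In bulk tissue more cells with the mark and more of the mark per cell cannot be told apart. ChIP tags kept for H3K27me3 numbered 41700562 with plasma of 3-month rats and 44383604 with plasma of 22-month rats. Without plasma they were 117740131 ipsilateral and 73142126 contralateral at 21 months, against 71635071 and 35621686 at 13 months. The older lists thus had 1.64 and 2.05 times the tags of the younger ones. The 21-month and 13-month lists of each mark came from separate processing folders, so age and processing cannot be told apart. All plasma lists came from a further folder, so plasma and processing cannot be told apart either.

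The number of near gains depended on how many peaks each list was allowed. The 21-month lists held 300668 ipsilateral and 367061 contralateral peaks, against 117866 and 51805 at 13 months. When every list was held to its 51805 peaks of highest −log10 q-value, 3459 near gains were found, and 2082 of them overlapped a near gain of the full lists. In that setting a weaker 13-month peak counted as absent. Regions of the reverse kind, with a peak on both sides at 13 months and neither at 21 months, within 5 kb of a 21-month peak and free of H3K4me3, numbered 469 with all peaks and 1124 with equal numbers. Of all such reverse regions without H3K4me3, 89.7% lay near a peak of the other age with all peaks and 76.6% with equal numbers, against 63.1% and 70.8% of gains at 21 months, so nearness to peaks of the other age was not particular to the gains. Near gains outnumbered the reverse regions in both settings, but 3459 against 1124 is a far smaller excess than 66398 against 469. The part of sequencing depth in the difference was not tested.

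Near gains were short, single peaks of modest height. Their median length was 596 bp (quartiles 431 and 860 bp, range 212 to 6847 bp), and 17.2% were longer than 1 kb. Far gains had a median of 551 bp, with 13.4% over 1 kb. H3K27me3 regions present in all 4 lists without H3K4me3, of which there were 13753, had a median of 1618 bp, with 76.4% over 1 kb. A single peak on each side made up 89.4% of near gains, against 52.5% of the regions of all 4 lists. The summits of the sides lay a median of 110 bp apart in near gains and 113 bp apart in far gains.

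Fold enrichment over the local background is the authors' own value for each peak, and each region was described by the lower of its 21-month folds on the 2 sides of the brain. The median of this lower fold was 2.50 in near gains (quartiles 2.20 and 2.85), 2.40 in far gains and 3.39 in the regions of all 4 lists. A lower fold of at least 3 was found in 16.9% of near gains, 10.8% of far gains and 68.7% of the regions of all 4 lists. Only 23 near gains, or 0.0346%, reached a lower fold of 5. The contralateral fold was the higher in 71.4% of near gains, and it was also the higher in 73.2% of far gains and 72.7% of the regions of all 4 lists, so this order belongs to the lists as a whole. Across near gains the folds of the sides were only weakly related, with a Spearman's rho of 0.123 over 66398 regions. Far gains had a rho of 0.091. The 19530 regions with a peak in all 4 lists, H3K4me3 included, had 0.511. These values are descriptions across regions of the same pair of lists.

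**Figure D1:**
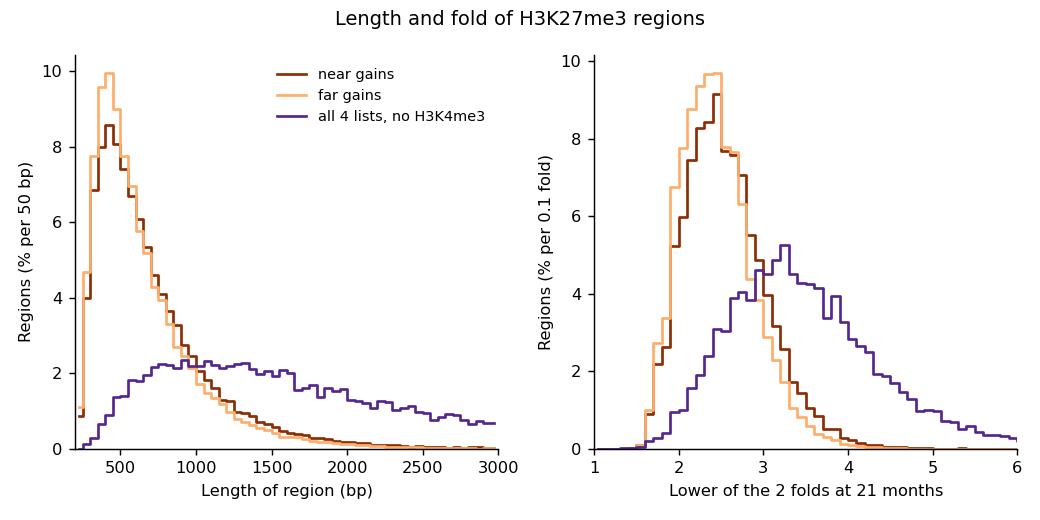
Length in bp (left, 50 bp bins, up to 3000 bp) and lower of the 2 folds at 21 months (right, bins of 0.1, up to 6) as a percent of regions, for near gains, far gains and regions of all 4 lists without H3K4me3. Near gains peak at short lengths and low folds close to far gains, with medians of 596 bp and 2.50, while regions of all 4 lists have medians of 1618 bp and 3.39.

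The strongest near gains show how small the high end is. The first by lower fold, at chromosome 2, 52835589 to 52835850, was 262 bp long with folds of 8.03 ipsilateral and 6.82 contralateral, and it lay 303 bp from one earlier peak and 727 bp from another on its far side. Chromosome 1, 256404766 to 256405860, had folds of 6.18 and 6.19 and lay 3324 bp from its nearest earlier peak. The third, at chromosome 5, 24680026 to 24681444, was 1419 bp long with 6.08 and 6.37 and sat between earlier peaks 1803 and 1540 bp away. All coordinates are as the authors' lists give them, 1-based, on the genome build the authors used, which these sources do not name, and genes were not assigned. The other 7 of the leading 10 lay on chromosomes 12 (at 15646242 and 42847580), 5, 2, 20, 18 and 14, with lower folds of 5.33 to 5.95. Of the 10, the regions on chromosome 1 and chromosome 14 also had a peak with plasma of 22-month rats, with folds of 2.17 and 2.60. None had a peak with plasma of 3-month rats or an H3K9ac peak in any of the 6 H3K9ac lists. Such absence is common, since 91.3% of near gains and 91.4% of all regions without H3K4me3 had no H3K9ac peak. Only 3.75% and 3.89% had a 3-month plasma peak, and 4.37% and 4.97% a 22-month one.

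The longest near gains were a different set from the strongest. The longest, 6847 bp at chromosome 5, 171628202 to 171635048, was covered over its whole length on the contralateral side and over 3012 bp on the ipsilateral side. Its end lay 384 bp from an earlier peak. The next was 5609 bp at chromosome 10, 45372201 to 45377809, with folds of 2.85 ipsilateral and 5.01 contralateral and an ipsilateral 21-month H3K9ac peak of fold 2.25. At chromosome 17, 10164182 to 10169402, a near gain of 5221 bp lay between earlier peaks 2189 and 3597 bp away. It had an H3K27me3 peak with plasma of 3-month rats (fold 3.30) and an H3K9ac peak with plasma of 22-month rats (fold 3.33). Chromosome 16, 82745927 to 82751122, with 5196 bp, was alike in having a 3-month plasma H3K27me3 peak (fold 3.91) and a 22-month plasma H3K9ac peak (fold 2.61). The fifth, 4959 bp at chromosome 10, 95993741 to 95998699, lay 321 bp from an H3K4me3 peak, the closest of the 5 to such a peak. It had an H3K9ac peak of fold 3.02 in the contralateral tissue at 13 months and one of fold 3.40 with plasma of 22-month rats.

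Gains at 21 months lay thickest beside the earlier peaks. Bases within 5 kb of a 13-month peak made up 22.0% of the sequence up to the last peak of each chromosome, and 7.39% of them lay in a gain without H3K4me3, against 1.30% of the bases farther away. By distance, gains covered 9.93% of bases at 0.5 to 1 kb and 10.8% at 1 to 2 kb. The cover was 5.59% at 4 to 5 kb, 4.07% at 5 to 10 kb, 2.21% at 10 to 20 kb and 0.235% beyond 50 kb. The low 2.55% within 500 bp follows from the rule, since a 21-month peak that touches an earlier one joins it and is then no gain. The whole 21-month lists, to which no such rule applies, covered 27.5% (ipsilateral) and 26.4% (contralateral) of the bases within 500 bp and 0.347% and 1.08% of those beyond 50 kb.

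**Figure D2:**
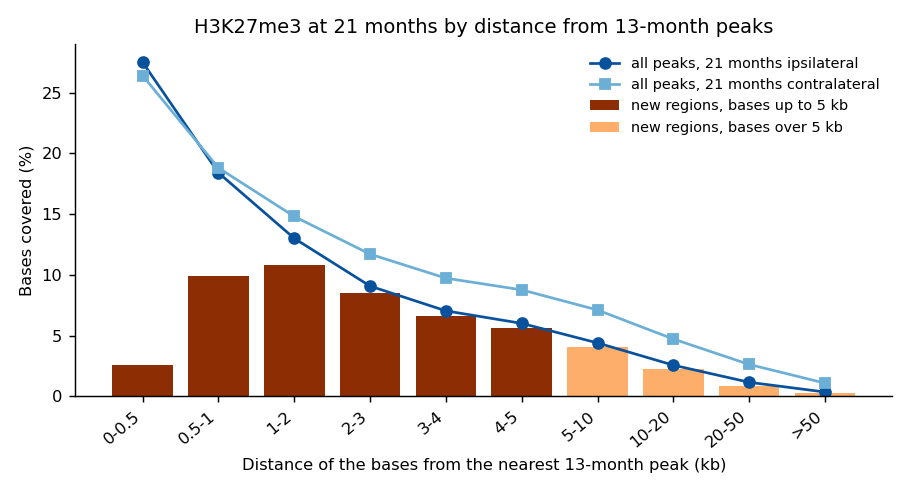
Percent of bases outside 13-month peaks that were covered at 21 months, by distance from the nearest 13-month peak in kb. Bars give gains on both sides without H3K4me3, split at 5 kb, and lines give all peaks of each 21-month list. Gains cover 10.8% of bases at 1 to 2 kb and 0.235% beyond 50 kb, and both lists fall with distance.

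The 5 kb limit did not mark a step. The median distance of a near gain from its nearest earlier peak was 1346 bp (quartiles 595 and 2610 bp). The 2752 near gains at 4.5 to 5 kb had a median length of 592.5 bp and a median lower fold of 2.43, and the 2378 far gains at 5 to 5.5 kb had 574 bp and 2.41. Within 250 bp of an earlier peak 21.6% of gains had a lower fold of at least 3, at 4 to 5 kb 13.2%, and beyond 50 kb 9.22%, so the share thinned out gradually with distance.

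The earlier peak within reach was most often ipsilateral. An ipsilateral 13-month peak alone lay within 5 kb for 32000 near gains (48.2%), peaks of both sides for 26969 (40.6%) and a contralateral one alone for 7429 (11.2%). The ipsilateral 13-month list held 117866 peaks against 51805 contralateral ones, so the counts follow the order of the list sizes. With the contralateral 13-month list as the only source of neighbours, 34398 near gains remained.

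Some near gains lay in gaps between earlier peaks and took up part of them. Of the 66398, 23878 (36.0%, 95% interval 35.6 to 36.3%) had an earlier peak within 5 kb on each flank, and these sat in gaps with a median width of 4240 bp. They had a median length of 602 bp and a median lower fold of 2.56, against 593 bp and 2.47 in those flanked on 1 side only. The 13-month peaks left 103890 gaps of up to 10 kb between them, and 21358 (20.6%, 20.3 to 20.8%) of those held a near gain. Near gains took up 9.64% of the bases in these gaps, whereas all 21-month peaks took up 22.8% of them ipsilaterally and 22.7% contralaterally. A gap that held near gains was filled by them to a median of 21.8%, and 1694 of the 21358 were filled to at least 50%.

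How a gap was filled changed with its width. In gaps of up to 500 bp, only 6 of 29774 held a near gain, where the shortest near gain of all, at 212 bp, barely has room, but a single 21-month peak spanned the whole gap in 40.4% of cases ipsilaterally and 34.9% contralaterally, and in 26.2% on both sides. At 1 to 2 kb, 14.5% of gaps held a near gain, while 2.65% and 2.98% were spanned. At 2 to 5 kb the share with a near gain was 42.0%, and at 5 to 10 kb it was 58.2%, where no gap was spanned by a peak of either list. Wider gaps offer more room, and the near gains' share of gap bases was 11.5% at 2 to 5 kb and 11.1% at 5 to 10 kb.

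**Figure D3:**
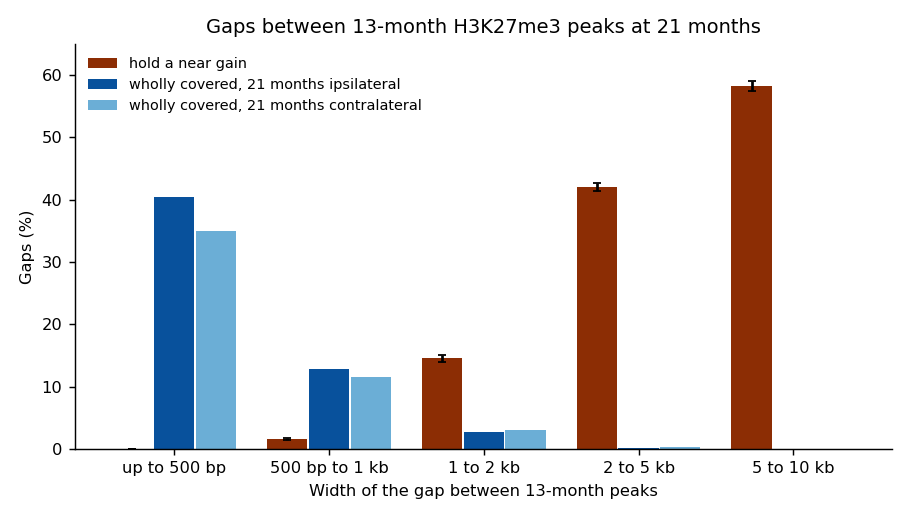
Percent of gaps between 13-month peaks, by gap width, that held a near gain (with 95% Wilson intervals) or were wholly covered by a 21-month peak ipsilaterally or contralaterally. Gaps of up to 500 bp were more often spanned (40.4% and 34.9%) than filled by a separate near gain, and gaps of 5 to 10 kb held separate near gains (58.2%).

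The most filled gap by bases, on chromosome 9 from 98463694 to 98473289, was 9596 bp wide and held 4 near gains of 6801 bp together, 70.9% of its width. In the gap at chromosome 3, 9691927 to 9700272, 4 near gains took up 6419 of 8346 bp (76.9%). A gap of 9855 bp at chromosome 5, 158688581 to 158698435, held 5 near gains over 6231 bp, and the gap at chromosome 4, 116060724 to 116069127, also held 5, over 6080 of 8404 bp. The last of the 5, at chromosome 9, 15169170 to 15178356, held only 2 near gains, which covered 6061 of 9187 bp. Peaks with plasma of 3-month rats reached into the chromosome 9 gap at 98463694 over 337 bp and the chromosome 3 gap over 780 bp. No peak with plasma of 22-month rats reached into any of the 5.

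The earlier regions beside near gains were themselves covered over longer stretches at 21 months. The nearest earlier regions numbered 43371 when each was counted once. A 21-month peak on both sides overlapped 57.2% of them and none overlapped 23.8%, against 45.0% and 35.8% of the 79053 other regions with a 13-month peak. In those present at both ages on the ipsilateral side (24046), the median covered length was 711 bp at 21 months against 374 bp at 13 months, and 80.6% were longer at 21 months. Other ipsilateral regions had 695 bp at 21 months against 431 bp at 13 months, with 73.6% longer. On the contralateral side the neighbours of near gains (12676) had 1023 bp at 21 months against 328 bp at 13 months, with 94.3% longer, and other regions had 942 bp at 21 months against 372 bp at 13 months, with 89.5% longer. Longer cover at 21 months was thus seen with and without a near gain beside it, and in a larger share of the neighbours. The same untreated lists defined the near gains, so their neighbours were chosen for having 21-month peaks close by. Neighbours also had the shorter cover at 13 months on each side of the brain. The differences between neighbours and other regions are therefore descriptions, and the part of this choice in them was not tested. The greater number of tags at 21 months moves with the longer cover, and the part of the tags was not tested.

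Another near gain lay within 5 kb of 73.6% of near gains and within 1 kb of 36.7%. The rule confines near gains to within 5 kb of earlier peaks. No share for other regions was set beside these values, so they are descriptions and show no grouping particular to near gains. When the 13-month peaks were joined across gaps of up to 5 kb, 54013 domains resulted, and 31155 of them (57.7%) had a near gain inside or within 5 kb. These domains spanned a median of 6845 bp with the near gains added, against 1707 bp before, a median growth of 4250 bp. The domains were picked for having a near gain inside or within 5 kb, so this growth depends on that limit and is a description. It adds up both flanks and counts the near gains' own lengths, so it can exceed 5 kb. In the 5935 domains of 5 or more earlier peaks the median span was 17373 bp with near gains and 12523 bp without. In the 13501 domains of a single earlier peak it was 4501 bp with near gains and 277 bp without. The added span includes the empty stretch between the domain and the near gain. Inside a domain lay 14766 near gains (22.2%), and 9112 (13.7%) lay outside within 5 kb of a domain on each flank, where they connect neighbouring domains. With all near gains added, 46053 domains were left and 7960 (14.7%) had merged into others.

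The domain with most bases in near gains was at chromosome 12, 42676323 to 42770418. It was built from 51 separate 13-month stretches over 94.1 kb, and 22 near gains lay in it or within 5 kb, 16 of them inside, with 17.6 kb in all. H3K27me3 peaks covered 60.3 kb ipsilaterally and 56.0 kb contralaterally at 21 months, against 20.0 and 8.54 kb at 13 months. With plasma of 3-month rats they covered 3.35 kb, and with plasma of 22-month rats 1.23 kb. These lengths include 5 kb on each flank. Over the whole genome the plasma lists also covered less, 17.6 Mb (3-month) and 21.6 Mb (22-month), against 161 Mb in the untreated 21-month ipsilateral list. H3K9ac covered 0.204 kb of the domain and its flanks ipsilaterally at 21 months and nothing contralaterally.

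**Figure D4:**
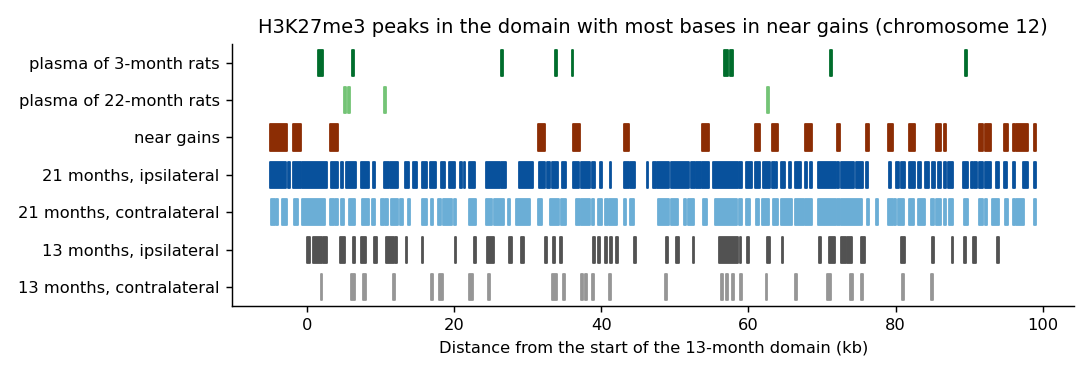
Positions of H3K27me3 peaks in and around the chromosome 12 domain, in kb from its start, with 1 row for each list and 1 for the near gains. The 21-month rows are denser (60.3 and 56.0 kb covered, in many separate peaks) than the 13-month rows (20.0 and 8.54 kb), and the plasma rows are sparse (3.35 and 1.23 kb).

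The next 4 domains had the same form with different plasma cover. At chromosome 5, 143176909 to 143220557, 16 near gains covered 15.3 kb, and the peaks covered 32.0 and 33.2 kb at 21 months, against 10.2 and 4.42 kb at 13 months, ipsilateral value first. Plasma of 3-month rats gave 2.47 kb there and plasma of 22-month rats none. At chromosome 7, 65148217 to 65245327, 19 of 21 near gains lay inside the domain, and the order of the plasmas was the other way, with 1.15 kb for 3-month and 5.13 kb for 22-month plasma. The domain at chromosome 20, 6600431 to 6695417, had the widest cover at 21 months of the 5, 66.8 kb ipsilateral and 80.5 kb contralateral, against 17.3 and 13.3 kb at 13 months, and 0.805 kb with plasma of 3-month rats. The fifth, at chromosome 5, 142960716 to 143024972, held 13 near gains and had plasma cover of 4.89 kb (3-month) and 2.15 kb (22-month). It was also the one with most H3K9ac, 3.53 kb ipsilateral at 21 months. Over the zone within 5 kb of all domains that had a near gain, 436 Mb, the peaks covered 2.93% with plasma of 3-month rats, 3.16% with plasma of 22-month rats, and 26.5% in untreated 21-month ipsilateral tissue. The 3-month plasma list held 37241 peaks over 17.6 Mb of the whole genome, and the 22-month list 51178 over 21.6 Mb. The untreated list held 300668 peaks over 161 Mb. Of the covered bases of these lists, 72.5%, 63.7% and 71.5% lay in the zone, so the lower plasma cover was not particular to it. The zone was chosen by the untreated lists, and the plasma lists hold fewer tags and came from another processing folder. The order of cover is therefore a description, and plasma and processing cannot be told apart.

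Near gains were distributed over all autosomes. Their density ran from 14.7 per Mb on chromosome 2 to 44.3 per Mb on chromosome 12, with 43.5 on chromosome 10 and 39.0 on chromosome 19, the chromosomes that also carried many earlier peaks (60.4, 68.9 and 56.6 stretches per Mb). Chromosome X had 157 near gains, 0.982 per Mb, and 5.03 earlier stretches per Mb, and 35.4% of its gains were near an earlier peak, against 55.9 to 68.4% on the autosomes. Chromosome Y had 2 near gains, and 23 lay on sequences outside the assembled chromosomes.

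H3K9ac was rare in near gains, as it was in all joined regions without H3K4me3. At 21 months an ipsilateral H3K9ac peak overlapped 2327 near gains (3.50%, 3.37 to 3.65%), against 4.53% of far gains and 3.68% of all joined regions without H3K4me3. A contralateral one overlapped 1.21%, against 1.46% of far gains and 1.63% of all such regions. At 13 months the ipsilateral share was 1.23%, against 1.69% and 1.37%, and the contralateral share 2.62%, against 3.59% and 2.82%. With plasma of 3-month rats 0.276% of near gains overlapped H3K9ac, against 0.265% of far gains and 0.374% of all regions, and with plasma of 22-month rats 5.04%, against 5.64% and 4.71%. In each of the 4 lists without plasma the share in near gains was below that in far gains and slightly below that in all regions. None of the 6 H3K9ac lists touched 91.3% of near gains, against 90.0% of far gains and 91.4% of all regions.

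The ipsilateral 21-month H3K9ac peaks that touched near gains had a median fold of 2.56, against 2.59 for those that touched far gains and 2.59 for those in all regions without H3K4me3. They covered at least 50% of the region in 1.42% of near gains (943 of the 2327), against 2.06% of far gains and 1.95% of all regions. Near gains with such a peak were longer, with a median of 752 bp against 592 bp for those without. The ipsilateral H3K9ac share was higher in longer near gains, at 2.04% in the shortest of 4 length classes (up to 431 bp) and 5.86% in the longest (over 860 bp), against 2.78% and 7.95% of far gains and 2.67% and 7.67% of all regions without H3K4me3. Near gains had a lower share than both in each of the 4 length classes. With plasma of 22-month rats, where the overall share was above that of all regions, it was 2.64% in the shortest class and 8.79% in the longest, against 3.19% and 10.8% of all regions. All regions are shorter than near gains, with a median of 378 bp. H3K9ac at 13 months and not at 21 was seen in 1248 near gains (1.88%, 1.78 to 1.99%), against 2.21% of far gains and 1.76% of all regions. H3K9ac in all 4 untreated lists was seen in 115 (0.173%), against 0.306% of far gains and 0.264% of all regions.

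H3K27me3 peaks with plasma were also scarce in near gains, as in all joined regions without H3K4me3, and scarcer still in far gains. With plasma of 3-month rats 2487 near gains (3.75%, 3.60 to 3.89%) had a peak, against 743 far gains (1.91%, 1.78 to 2.05%) and 3.89% of all joined regions without H3K4me3. With plasma of 22-month rats 2899 near gains (4.37%, 4.21 to 4.52%) had one, against 824 far gains (2.12%, 1.98 to 2.27%) and 4.97% of all such regions. The shares in near gains were thus above those in far gains and slightly below those in all regions, and the comparison with all regions depended on length. The intervals cover counting error over regions only and treat regions as independent, although another near gain lay within 5 kb of 73.6% of near gains. Neither plasma list has a replicate library, so the difference between near and far gains was not tested. Regions of all 4 lists without H3K4me3 were far more often covered, in 34.1% of cases with 3-month and 26.1% with 22-month plasma.

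The difference between near and far gains in plasma overlap was seen in each of the 4 length classes. In the shortest class 3.03% of near gains and 1.52% of far gains had a 3-month plasma peak, and in the longest class 4.63% and 2.57%. For 22-month plasma these shares were 4.82% and 2.28% in the shortest class and 3.86% and 1.90% in the longest. Set beside all regions without H3K4me3, near gains had the higher share in the shortest class, where all regions had 1.80% (3-month) and 3.27% (22-month), and the lower share in the longest, where all regions had 13.1% and 11.6%. It was also seen when each untreated list was held to equal numbers of peaks, where 414 of 3459 near gains and 120 of 1424 far gains had a 3-month plasma peak (10.9 to 13.1%, against 7.09 to 9.98%), and 9.37% and 4.49% a 22-month one. Peaks of either plasma list in general lay close to earlier peaks. Outside these, the 3-month list covered 2.00% of bases within 500 bp and 0.0321% beyond 50 kb, and the 22-month list 2.82% and 0.0613%.

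Plasma overlap was highest right beside the earlier peaks, and H3K9ac overlap at 21 months farthest from them. Within 250 bp, 6.16% of the 4996 near gains had a 3-month plasma peak and 7.93% a 22-month one, above the 3.89% and 4.97% of all regions. At 4 to 5 kb the shares were 2.65% and 3.07%, and among far gains beyond 50 kb they were 1.16% and 1.97%. The ipsilateral 21-month H3K9ac share was 3.06% within 250 bp, 3.91% at 4 to 5 kb and 5.33% beyond 50 kb. The contralateral H3K9ac share was also highest beyond 50 kb, at 1.72%. It did not rise throughout, with 1.54% within 250 bp and 1.03% at 4 to 5 kb.

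**Figure D5:**
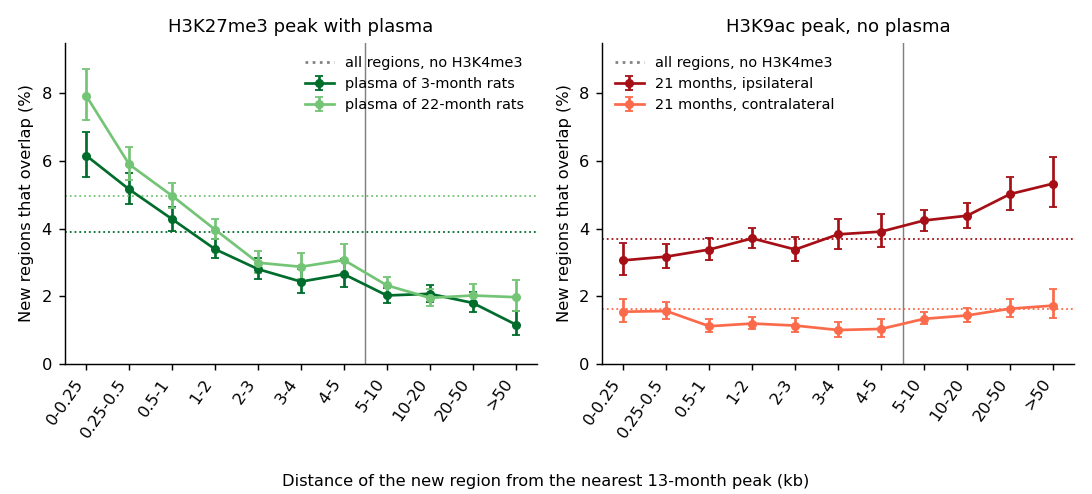
Percent of gains at 21 months, by distance in kb from the nearest 13-month peak, that overlap an H3K27me3 peak with plasma (left) or an H3K9ac peak at 21 months without plasma (right). Bars are 95% Wilson intervals, dotted lines the shares in all regions without H3K4me3, and the grey vertical line marks 5 kb. Plasma shares are highest within 250 bp (6.16% and 7.93%), and the ipsilateral H3K9ac share is highest beyond 50 kb (5.33%).

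The near gains that had plasma peaks sat deeper in older H3K27me3. Those with peaks in both plasma lists numbered 335 (0.505%, 0.453 to 0.561%), against 57 far gains (0.147%, 0.113 to 0.190%) and 1.06% of all regions without H3K4me3. Their median distance from an earlier peak was 629 bp, and 54.9% were flanked by earlier peaks on both sides. Near gains with no plasma peak had a median distance of 1388 bp, and 35.2% were flanked. The ipsilateral 21-month fold was 3.06 in the median where both plasma lists had a peak and 2.62 where neither had, while the contralateral folds were 3.16 and 3.09. The plasma lists came from ipsilateral tissue.

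The 5 near gains with the highest lower plasma fold were picked by that fold, so their plasma values are high by choice and their order against the untreated folds shows no change. At chromosome 15, 26702697 to 26703191, the folds were 5.32 and 5.17 with plasma of 3-month and 22-month rats, against 3.65 ipsilateral and 2.70 contralateral at 21 months without plasma, and earlier peaks lay 185 and 359 bp away. At chromosome 8, 36915033 to 36915412, they were 4.63 and 4.94 with plasma, against 3.56 and 3.14 without. The other 3 of the leading 5, on chromosomes 2, 4 and 7, had plasma folds of 4.46 to 4.72 and untreated folds of 2.20 to 3.46. Folds of separate lists rest on different depths and backgrounds and were not corrected for these. All 5 lay within 575 bp of an earlier peak.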

How the data were processed

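Sheared chromatin from rat brain was immunoprecipitated, and libraries from a ThruPLEX kit were sequenced as paired ends (NextSeq), per the labels' protocols. HOMER, Bowtie2 and cutadapt, with no versions, are named in the submitters' processing notes. The authors called narrow peaks with MACS 2.1.1.20160309 at a q-value cutoff of 0.05, with single-end handling and at most 1 tag per position, per the file headers. Narrow calling can break broad H3K27me3 domains into short peaks. The deposited lists hold for each peak the pileup, a coverage signal that was not used here, the fold, which is a ratio over local background, and the −log10 q-value. The genome build and the aligner's settings are not given in the sources used here.

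From the 16 deposited lists, regions, distances, gaps and domains were computed with scipy 1.17.1, pandas 2.3.3 and numpy 2.4.6 under Python 3.11.15, and the rule was tested on simulated data. Overlap means at least 1 bp. Shares over regions have Wilson intervals. Groups come from the labels. Near gains, comparison regions and alternatives were chosen with earlier results of these data known. Named regions are the 10 with the highest lower fold on assembled chromosomes, the 5 longest, the 5 gaps and 5 domains with most bases in near gains, and the 5 with the highest lower plasma fold. Alternatives were other thresholds, distances, joins, neighbour lists, equal numbers of peaks and other overlaps. No sequences are printed and no genes named, since no genome of the lists' build was used here.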

Additional observations from a re-analysis of the deposited data

Results flagged for a closer look

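The H3K9ac share of near gains moved in opposite directions with age on the sides of the brain. Ipsilaterally it was 3.50% at 21 months against 1.23% at 13 months, a difference of 2.27 percentage points, and contralaterally 1.21% at 21 months against 2.62% at 13 months, a difference of -1.41 points. Each value rests on 1 pooled list, so the difference between the sides was not tested. All joined regions without H3K4me3 showed nearly the same differences, 2.31 and -1.19 points. With 50651 peaks in each H3K9ac list the shares were 1.09% at 21 months against 0.758% at 13 months ipsilaterally, and 0.401% at 21 months against 1.01% at 13 months contralaterally. Over all regions they were then 1.37% at 21 months against 0.862% at 13 months ipsilaterally, and 0.529% at 21 months against 1.21% at 13 months contralaterally. The 13-month ipsilateral H3K9ac list kept 19323327 ChIP tags with 82% duplicates, and the other 3 lists without plasma kept 46299770 to 99213634 with 13 to 55%.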

How the results depend on the processing

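No paired analysis was possible because the libraries that share a replicate number were pooled before peaks were called, and for the same reason no replicate could be left out. The full lists gave 66398 near gains, 63.1% of gains without H3K4me3. With peaks of −log10 q of at least 3, 57.8% of gains lay near an earlier peak, 32.5% of near gains were flanked on both sides, the median length was 650 bp and the median lower fold 2.65. In a separate setting the 66398 near gains were kept and only the H3K9ac and plasma lists were held to that q. H3K9ac at 21 months on either side then overlapped 3.40% (4.10% with all peaks), and the plasma lists of 3-month and 22-month rats 2.39% and 2.72%. Equal numbers of peaks gave 3459 near gains, 70.8% near, 40.5% flanked, 1015 bp and 3.59. A fold of at least 3 gave 13503, 56.4%, 30.0%, 835 bp and 3.30 in the same order. A limit of 1 kb gave 26553, 25.2%, 12.9%, 600 bp and 2.56, and 2 kb gave 43037, 40.9%, 21.2% and a fold of 2.53. With 10 kb the values were 78.4%, 51.3%, 591 bp and 2.49. Joining peaks within 200 bp gave 59.8%, 33.1% and 645 bp. Ipsilateral neighbours alone gave 56.0%, 31.6% and a fold of 2.51, and contralateral ones alone 34398, 32.7%, 17.7%, 615 bp and 2.52. The distance limits and neighbour lists change these values by their construction. For the others the cause was not tested. Overlap over at least 50% of a near gain lowered H3K9ac to 1.66% and the plasma shares to 1.2% and 1.77%. Equal numbers of H3K9ac peaks gave 1.32% and equal plasma lists 2.87% for 22-month plasma, both settings chosen after seeing the data. H3K9ac at 21 months or a plasma peak was found in 11.6% of near gains, 10.3% of those up to the median length and 12.9% of longer ones. Domain growth had a median of 4250 bp, 3355 bp with peaks joined within 1 kb, 4083 bp within 3 kb and 2900.5 bp with equal numbers. Leaving out regions within 1 kb of H3K4me3, or sequences outside the assembled chromosomes, kept each of the 5 values on number, nearness, flanks, length and fold within its counting error or within 1.5 times.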

Other observations

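Gains at 21 months on both sides that overlapped H3K4me3, which are outside the near gains, numbered 3117. An ipsilateral 21-month H3K9ac peak overlapped 46.3% of them (44.6 to 48.1%) and a contralateral one 40.4%, against 37.4% and 43.2% at 13 months. With plasma of 3-month rats the H3K9ac share was 22.5%, and with plasma of 22-month rats 48.5%. For comparison, an ipsilateral 21-month H3K9ac peak overlapped 29182 of all 493767 joined regions, and 17377 of the 472366 without H3K4me3. Regions with H3K4me3 in general thus carried it in a larger share than these gains. Their median length of 589 bp and median lower fold of 2.49 were close to those of near gains, 596 bp and 2.50. H3K27me3 with plasma overlapped 6.51% (3-month) and 7.60% (22-month) of them. A 3-month plasma peak overlapped 23458 of all joined regions, and a 22-month one 28104. Among joined regions without H3K4me3 the numbers were 18369 and 23453, so regions with H3K4me3 in general again had the larger shares.

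Regions within 5 kb of an earlier peak and without H3K4me3 that had a peak on 1 side only at 21 months numbered 51062 ipsilaterally and 60436 contralaterally. For 3-month plasma, peaks overlapped 3.00% of the ipsilateral and 1.25% of the contralateral ones, against 3.89% of all regions without H3K4me3. For 22-month plasma the shares were 5.83% and 1.94%, against 4.97%. All regions are longer, with a median of 378 bp against 285 bp (ipsilateral) and 317 bp (contralateral). Plasma lists come from ipsilateral tissue, and the part of the side was not tested. H3K9ac of the 21-month ipsilateral list overlapped 1.21% of the ipsilateral ones, against 3.72% of the contralateral ones and 3.68% of all regions without H3K4me3.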
